A study of Sus scrofa with 16 samples.

Results

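Peaks of open chromatin around 8 genes of red cell formation were followed across 8 peak lists from pig tissues. The genes were KLF1, TAL1, GFI1B, NFE2, EPOR, ALAS2, SLC25A37 and TFRC, which are 8 of the 19535 protein-coding genes (PCGs) placed on chromosomes by RefSeq in the assembly Sscrofa11.1. A peak was counted for a gene when it overlapped the gene body with 25 kb on either side, or the promoter, which reached from 2.2 kb before to 500 bp after any annotated transcription start. The windows covered 535.9 kb in all. They held between 24 peaks in newborn muscle and 76 in newborn liver.

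The libraries were made by ATAC-seq, in which a transposase cuts open DNA and tags it for sequencing, from nuclei of frozen tissue. All 16 libraries came from female crossbred pigs, described in the study as Berkshire × Tibetan full sibs. Newborns (day 0 per the labels, a day old per the study) gave liver, spleen, kidney, lung, heart and longissimus muscle, and the study took all of them from the same pair of animals. The later liver samples came from pigs of 28 days, named suckling, and of 180 days, named adult. No animal carried a treatment or an engineered allele. Each group had 2 replicates, and the deposited list of a group pooled both, so that no count below has a replicate error and no difference between groups could be tested. A gene without a peak is a gene at which none was called. Depth is unknown from the lists, and each whole tissue is a mixture of cells, in which fewer cells of a type and less open chromatin per cell cannot be told apart.

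Red cells are formed in the fetal liver and spleen before birth, and later in the bone marrow. Their program is driven by GATA1, which binds the letters GATA beside TAL1 and its partners, and by KLF1, which binds CACCC boxes. Their precursors take up iron through the transferrin receptor, carry it into mitochondria and build heme, and erythropoietin keeps them alive.

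Sequences of open sites that were called in newborn spleen, and most of them also in newborn liver, are shown first, since the comparisons below turn on these sites. They were chosen after their values were seen. Each stretch lies within the 300 bases about the summit in newborn spleen (the whole peak for KLF1), without annotated exon bases, and was read from Sscrofa11.1 on the strand of the gene from 5′ to 3′. Capitals mark matches to a GATA motif, searched as AGATAA or AGATAG and as TGATAA or TGATAG on both strands.
ALAS2 promoter, chrX:47896042-47896185, minus strand: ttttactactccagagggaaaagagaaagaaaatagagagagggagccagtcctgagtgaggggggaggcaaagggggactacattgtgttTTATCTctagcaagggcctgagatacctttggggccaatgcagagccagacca
ALAS2 intron, chrX:47892425-47892724, minus strand: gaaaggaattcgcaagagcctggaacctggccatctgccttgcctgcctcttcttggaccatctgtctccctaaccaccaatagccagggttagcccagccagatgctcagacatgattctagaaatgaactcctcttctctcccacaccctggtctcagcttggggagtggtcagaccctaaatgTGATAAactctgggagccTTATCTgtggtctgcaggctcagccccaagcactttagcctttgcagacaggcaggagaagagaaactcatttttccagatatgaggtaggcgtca
KLF1 promoter, chr2:66144602-66144766, plus strand: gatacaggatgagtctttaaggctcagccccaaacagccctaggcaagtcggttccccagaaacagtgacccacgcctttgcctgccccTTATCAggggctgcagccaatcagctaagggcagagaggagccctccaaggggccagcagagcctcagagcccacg
NFE2 second start, chr5:19497748-19498002, minus strand: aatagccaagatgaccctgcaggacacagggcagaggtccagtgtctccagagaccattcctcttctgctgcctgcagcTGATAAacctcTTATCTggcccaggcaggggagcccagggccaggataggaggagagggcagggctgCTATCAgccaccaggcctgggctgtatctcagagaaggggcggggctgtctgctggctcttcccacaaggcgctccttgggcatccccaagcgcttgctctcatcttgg
GFI1B intron, chr1:272707605-272707904, plus strand: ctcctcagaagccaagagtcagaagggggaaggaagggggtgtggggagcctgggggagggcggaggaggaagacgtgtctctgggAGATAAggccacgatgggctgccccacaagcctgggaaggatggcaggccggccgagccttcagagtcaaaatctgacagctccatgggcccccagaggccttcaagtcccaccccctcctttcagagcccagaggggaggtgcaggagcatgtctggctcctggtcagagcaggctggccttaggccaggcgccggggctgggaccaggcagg
SLC25A37 upstream site, chr14:7663832-7664131, plus strand: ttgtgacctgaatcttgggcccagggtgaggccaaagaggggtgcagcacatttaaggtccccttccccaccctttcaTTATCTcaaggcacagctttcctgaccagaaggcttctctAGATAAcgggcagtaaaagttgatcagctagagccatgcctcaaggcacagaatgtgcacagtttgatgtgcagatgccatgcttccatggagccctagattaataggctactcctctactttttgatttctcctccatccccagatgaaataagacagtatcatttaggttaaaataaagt

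The stretch before the second start of NFE2 held 3 GATA matches. The ALAS2 intron and the SLC25A37 upstream site held 2 each, and the other stretches held 1 each. A CTG placed 7 to 9 bases before AGATAA or TGATAA is a composite that GATA1 and TAL1 are known to share. It overlaps the GATA motif, and it was found at 2 places before NFE2 and at 1 each of KLF1, the ALAS2 intron and SLC25A37. For comparison, 18.5% of the 47543 windows of 300 bases about an annotated start held a GATA match and 0.940% the composite. Among distal peaks of newborn spleen near PCGs the shares were 31.9% and 3.12%. The printed stretches were picked, so these shares cannot show an enrichment in them. Other spleen promoter sites, such as those of EPOR at −646 bp and TAL1 at −799 bp, held no GATA match. A match of letters is a description and not a bound site.

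Values of a peak are the −log10 p that the peak caller gave in replicate 1 and replicate 2, in this order. Beside them stands the irreproducible discovery rate (IDR), which is low when a peak ranks high, and alike, in both replicates. Weak peaks that agree have a high IDR, such as that of TAL1 in lung (3.39 and 3.42, IDR 0.741). A limit on the IDR therefore also selects for strength. The −log10 p grows with depth, so it was compared only within a list, as the percentile of the smaller replicate value among all peaks of the list. Replicates did not stand level. In newborn liver the medians over peaks of the windows were 33.5 in replicate 1 and 8.50 in replicate 2, and over the whole list 24.9 and 8.64. In newborn spleen they were 9.32 and 40.1 in the windows, and 8.59 and 16.1 over the whole list. The replicates were over 10-fold apart at 6 of 76 peaks in newborn liver (7.89%, against 11.5% of the list), each with replicate 1 higher, and at 7 of 72 in newborn spleen (9.72%, against 2.87%), each with replicate 2 higher. At these peaks the summits of the replicates lay a median of 276 bp apart in newborn liver and 262 bp in newborn spleen, and at the other peaks of the windows 34.5 and 34.0 bp. The part of this imbalance in the results was not tested.

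**Figure D1:**
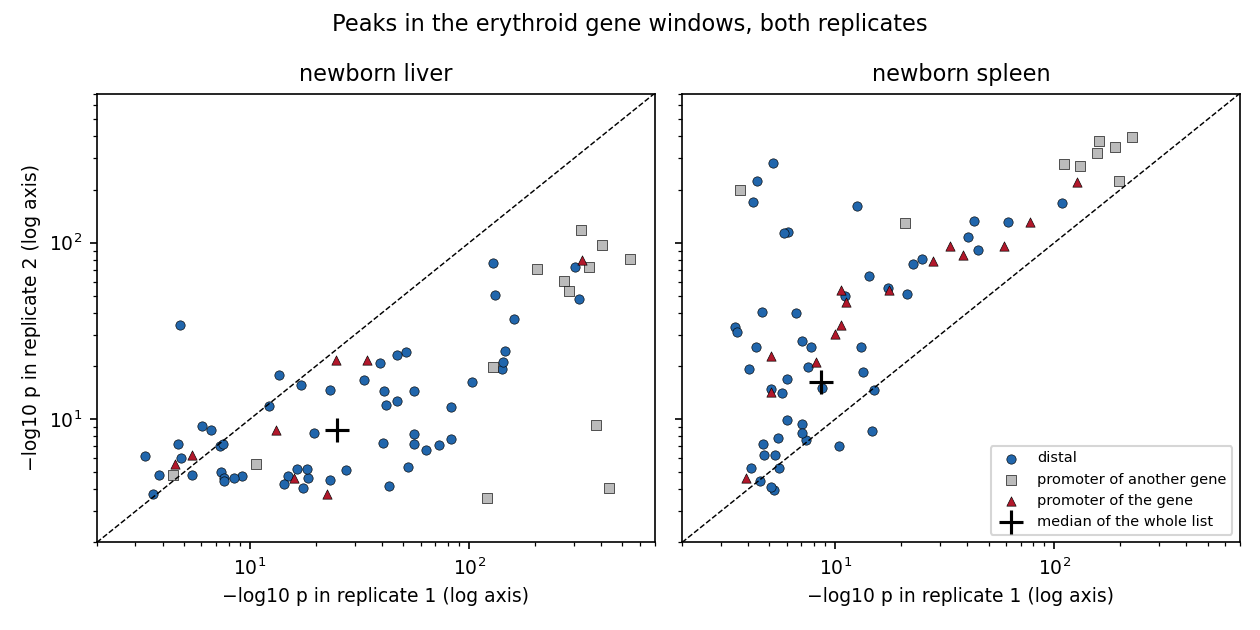
Each point is a peak in the windows of the 8 genes, with its −log10 p in replicate 1 on the horizontal and in replicate 2 on the vertical log axis, for newborn liver and newborn spleen. Most newborn liver points lie below the dashed line of equality and most newborn spleen points above it, and the cross marks the medians of the whole list (24.9 and 8.64 in liver, 8.59 and 16.1 in spleen).

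Promoters were compared first, to see where the starts of the genes were open. In newborn spleen 7 of the 8 genes had a promoter peak, all but GFI1B, where 68.9% of all PCGs had one. In newborn liver 6 did (73.7% of PCGs), all but KLF1 and TFRC. The count was 4 in suckling liver (75.0% of PCGs) and 3 in adult liver (69.9%). Kidney and lung had 4 each (75.3% and 70.6% of PCGs), heart 3 (68.1%) and muscle 2 (61.5%). The newborn liver count was therefore near the background of all genes, and the counts of both later livers were below it. At an IDR of 0.05 or lower, 6 genes were left in newborn spleen (43.0% of PCGs) and 1 in newborn liver (44.1%). Under the same limit suckling liver kept 2 genes (55.4%) and adult liver 1 (56.9%), so the fall with age in the full lists was not seen among the peaks that passed it. Kidney kept 3 (56.2%), and lung, heart and muscle none (40.8%, 38.8% and 37.0%).

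**Figure D2:**
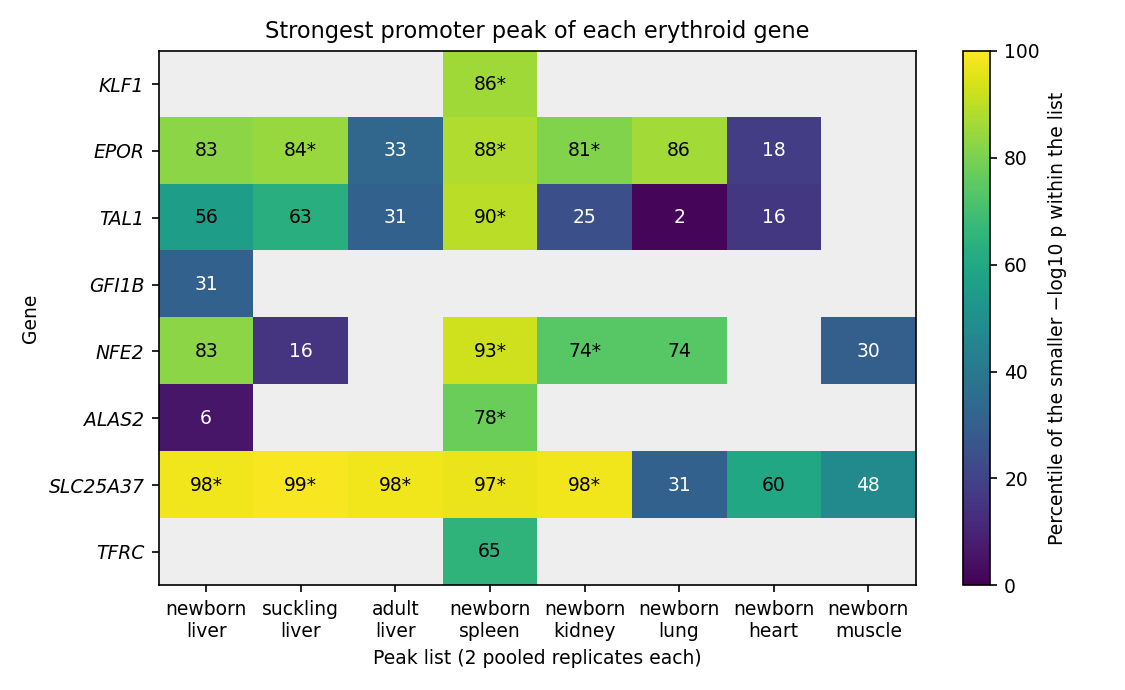
Percentile, within each peak list, of the smaller −log10 p of the strongest promoter peak of each gene. Grey cells had no promoter peak, and asterisks mark a promoter peak with an IDR of 0.05 or lower. SLC25A37 fills all 8 columns, KLF1 and TFRC appear in newborn spleen, and ALAS2 in newborn liver and newborn spleen.

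Between the liver ages, 3 genes, GFI1B, NFE2 and ALAS2, had a newborn promoter peak without an overlapping peak in suckling or adult liver, a pattern seen in 5.45% of PCGs. Of these, GFI1B and ALAS2 had no promoter peak at either later age (1.54% of PCGs). At NFE2 the peak at the main start overlapped one in suckling liver, and no promoter peak was called in adult liver. EPOR, TAL1 and SLC25A37 had a promoter peak at all 3 liver ages. Newborn liver and newborn spleen both had a promoter peak at 5 genes (66.5% of PCGs), although at TAL1 not at the same site. Newborn spleen with neither later liver was found at 3, namely KLF1, ALAS2 and TFRC (1.82% of PCGs). No gene of the 8 lacked a promoter peak in all lists (16.9% of PCGs). ALAS2 was the gene with a promoter peak in these lists and none of the other 6 (0.123% of PCGs). KLF1 and TFRC had a promoter peak in newborn spleen alone (0.476% of PCGs), which for TFRC rests on its annotated start. Counted by site, 5 genes (KLF1, TAL1, ALAS2, SLC25A37 and TFRC) had a spleen promoter peak that overlapped no peak elsewhere, against 3.21% of PCGs.

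The transcription factors differed in where their starts were open. KLF1 (chr2:66144767-66148500, plus strand), the factor that switches on adult globin and many red cell genes, had 3 promoter peaks in newborn spleen and none in the other lists. The peak over its start, at −43 bp, had values of 28.0 and 78.4 with an IDR of 0.00661 and ranked at percentile 85.9 of its list. The others lay at −477 bp (10.6 and 53.8, IDR 0.204) and at 548 bp inside the gene (8.13 and 21.0, IDR 0.145). A further site of KLF1 stood just beyond the promoter limit, in the gene body with summits between 1506 and 1669 bp, and was called in 6 lists, all but heart and muscle. It reached 145 and 24.2 in newborn liver, 22.6 and 76.1 in newborn spleen, and 94.1 and 134 in adult liver. The start of KLF1 was thus called open in 1 list while the body of the gene was called open in all 3 liver ages.

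TAL1 (chr6:164282242-164297636, plus strand), a helix-loop-helix factor of blood stem cells and red cell precursors, has 4 annotated starts. In newborn spleen a peak covered the first start, with its summit at −144 bp and values of 38.4 and 84.9 (IDR 0.00417, percentile 89.6). The newborn liver peak lay at 739 bp, over exon sequence, with 13.2 and 8.66 (IDR 0.224, percentile 55.8). Suckling liver had 8.88 and 9.94 at 715 bp. Adult liver had 5.89 and 10.6 at 495 bp (percentile 18.9) and, before the most downstream start, 33.7 and 7.96 at 4720 bp (IDR 0.288, percentile 30.9). Lung had 3.39 and 3.42 at percentile 1.5, the lowest rank of these. No promoter peak of TAL1 was called in muscle. Although 7 lists had a promoter peak at this gene, only newborn spleen had one with an IDR of 0.05 or lower.

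NFE2 (chr5:19494672-19501810, minus strand), a leucine zipper factor of red cell precursors and megakaryocytes, has 2 annotated starts, and the lists differed by start. A peak over the main start was called in 6 lists, and it was strongest by rank in kidney (12.5 and 24.95, IDR 0.0107, percentile 74.1) and lung (9.61 and 17.5, percentile 73.9). In newborn spleen and newborn liver this peak ranked low, at percentiles 23.2 and 20.4. At the second start (position 19497747), which lies in an intron of the longer transcript, newborn spleen had 58.7 and 96.3 (IDR 0.00302, percentile 92.9) and newborn liver 34.0 and 21.7 (IDR 0.100, percentile 82.6). None of the other 6 lists had a peak there. GFI1B (chr1:272701386-272715551, plus strand), a repressor needed for red cells and platelets, had 1 weak promoter peak in newborn liver at −1683 bp (5.43 and 6.30, IDR 0.603). A site at 776 bp, just outside the promoter limit of 500 bp, was called in newborn spleen (11.08 and 49.9, IDR 0.138), and in suckling liver at 746 bp (6.75 and 7.93), so the absence of GFI1B from the spleen count rests on the limit chosen.

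EPOR (chr2:70063601-70068821, minus strand), the receptor for erythropoietin, had a promoter peak in 7 lists, all but muscle. The summit lay within 51 bp of the start in 6 of them, at values of 24.7 and 21.6 in newborn liver, 20.4 and 29.9 in suckling liver, 18.8 and 8.34 in adult liver, 25.2 and 16.2 in kidney, 17.5 and 42.0 in lung, and 8.83 and 4.66 in heart. In newborn spleen a single wide peak, from 70067144 to 70069066, took in both the start and the beginning of the gene body, with its summit at 1099 bp and values of 33.5 and 95.8. By rank the peak at the start of EPOR stood between percentiles 80.9 and 86.3 in newborn liver, suckling liver, kidney and lung. It stood at 33.2 in adult liver and 18.1 in heart. The wide spleen peak ranked at 88.2, with replicate summits 719 bp apart. In newborn liver a separate gene body peak at 1456 bp had 128 and 77.0 (percentile 97.8). The suckling liver peak at that site had 77.8 and 7.16 (percentile 53.1), with replicate summits 428 bp apart. The adult liver peak had 85.7 and 10.4 (percentile 39.9), with summits 254 bp apart. By replicate 1 alone the suckling peak ranked at percentile 98.4, the adult peak at 79.6 and the newborn peak at 83.3. By replicate 2 alone these ranks were 33.1, 23.7 and 97.6, so the lower ranks of the later peaks rest on replicate 2. Promoter peaks of EPOR were thus called well outside the newborn liver and spleen.

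ALAS2 (chrX:47871519-47896041, minus strand) encodes the red cell form of the first enzyme of heme synthesis. Its start was covered in newborn liver from 47895846 to 47896225, with 22.5 and 3.77 (IDR 0.603, percentile 5.9), and in newborn spleen from 47895928 to 47896238, with 17.6 and 53.8 (IDR 0.0178, percentile 77.6). A second spleen peak at −449 bp was weak (3.92 and 4.65). No promoter peak of ALAS2 was called in either later liver or in the other newborn tissues. An intron site about 3.5 kb inside the gene showed the same lists, with 40.5 and 7.29 in newborn liver (47892255-47892816, IDR 0.186, percentile 47.8) and 42.8 and 132 in newborn spleen (47892279-47892932, IDR 0.00363, percentile 90.7). Both sites of ALAS2 therefore had a low IDR in spleen, and in newborn liver replicate 1 had the far higher value at each.

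The iron genes showed opposite patterns at their starts. SLC25A37 (mitoferrin 1, chr14:7665002-7709998, plus strand), which carries iron into mitochondria, was the gene with a promoter peak in all 8 lists, as 56.9% of PCGs had. The peak over its start had 328 and 79.9 in newborn liver, 90.5 and 91.8 in suckling liver, 252 and 263 in adult liver, 127 and 220 in newborn spleen, and 58.4 and 84.1 in kidney. It ranked at percentiles 97.0 to 99.1 in these 5 lists, and at 31.0 in lung, 60.1 in heart and 47.9 in muscle. The site printed above, at −1020 bp, was called in newborn spleen and in no other list. TFRC (chr13:133976765-133997554, plus strand), the transferrin receptor, had 1 promoter peak, in newborn spleen at −2077 bp (11.2 and 45.8, IDR 0.110), and none over its annotated start in any list. A wide site near TFRC lay about 6 kb before that start and was called in all 8 lists, from percentile 92.9 in adult liver to 97.1 in heart, with 317 and 48.1 in newborn liver and 108 and 168 in newborn spleen. Since no annotated start of a PCG lies within reach of that site, it was counted as distal. Whether the annotated start of TFRC is complete was not tested, and with a start at that site TFRC would count as open in all 8 lists.

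**Figure D3:**
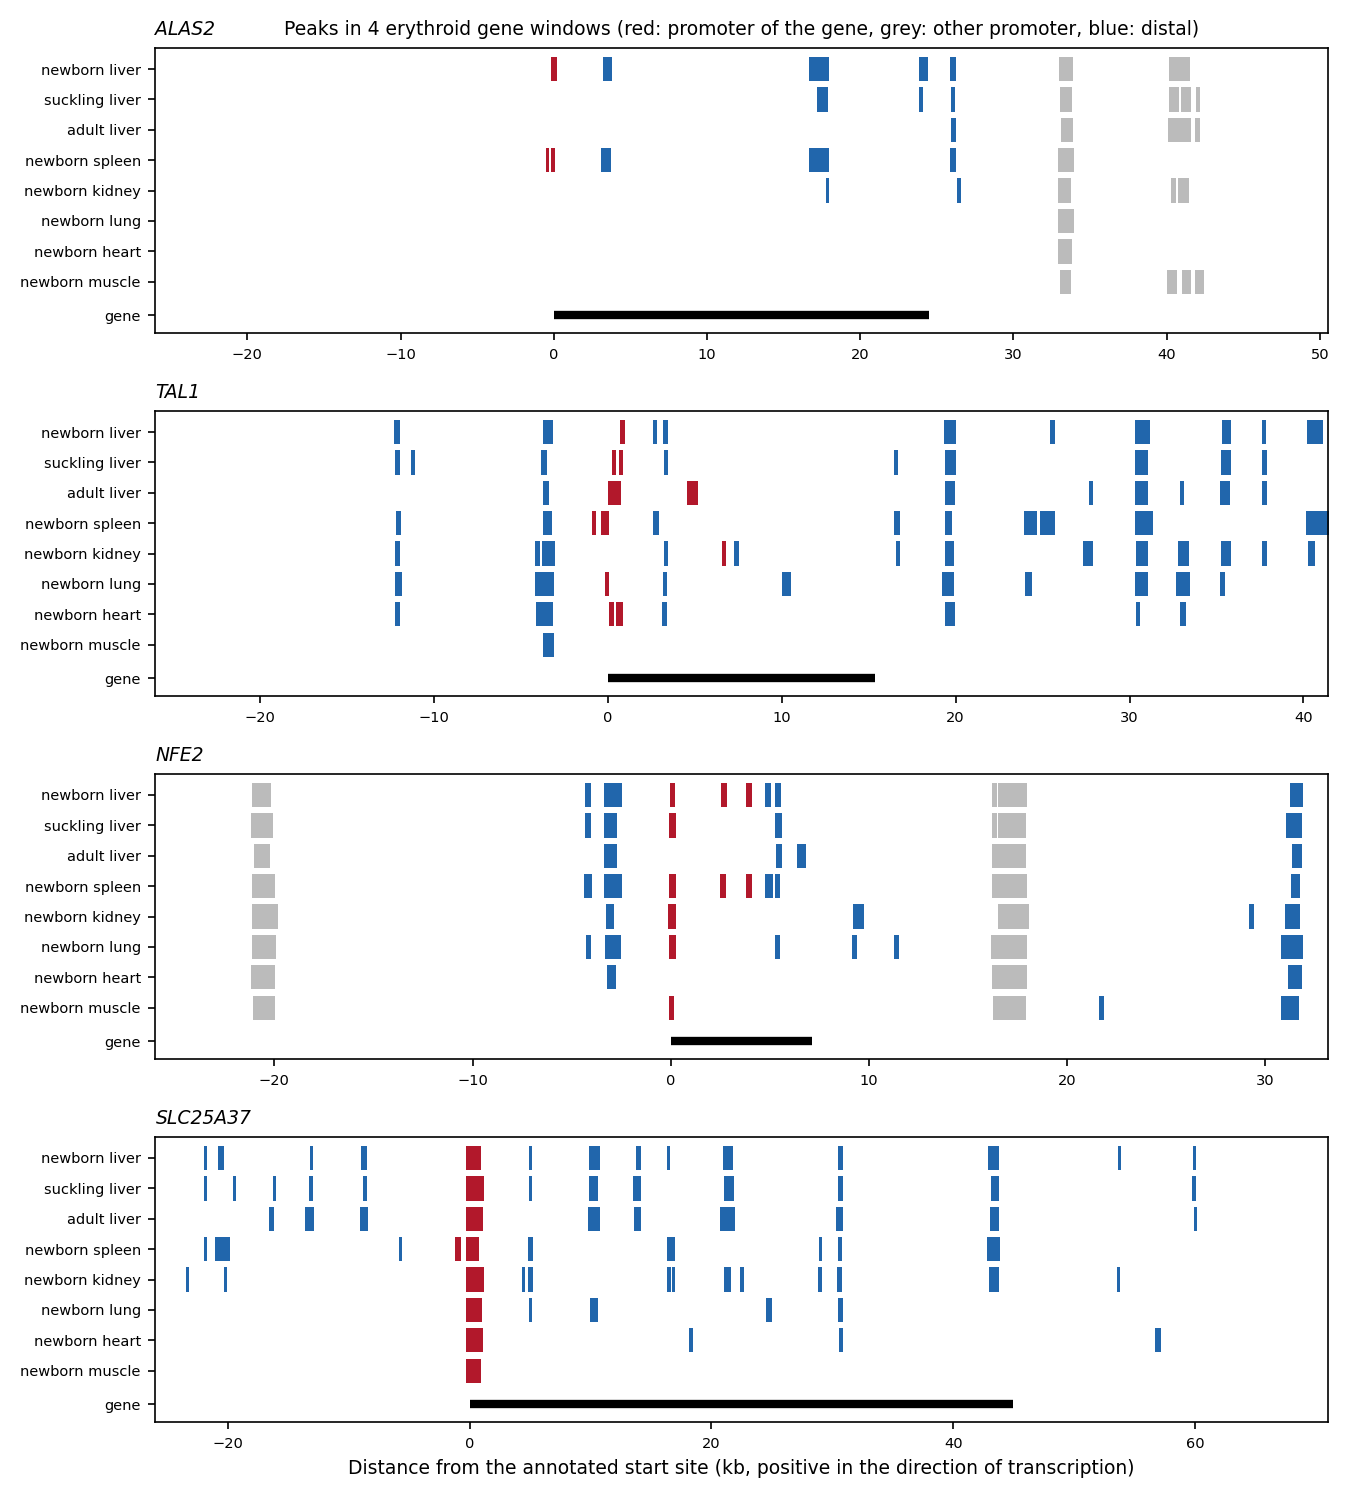
Peaks of the 8 lists, 1 row each, in the windows of ALAS2, TAL1, NFE2 and SLC25A37, by distance in kb from the annotated start in the direction of transcription. Red marks promoter peaks of the gene, grey promoters of other genes, blue distal peaks, and the black bar the gene. The ALAS2 start and the intron site at about 3.5 kb appear in newborn liver and newborn spleen, and the second NFE2 start in the same lists.

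Distal peaks, those in a window that touched no promoter of any PCG, were examined next. They numbered 55 in newborn liver, 51 in suckling liver, 46 in adult liver, 48 in newborn spleen, 50 in kidney, 36 in lung, 22 in heart and 10 in muscle. Per 100 kb of window this was 10.3 in newborn liver, where the windows of all PCGs had 5.23, and 8.96 in newborn spleen, against 3.46. The same density was 9.52 against 6.23 in suckling liver, 8.58 against 4.79 in adult liver, 9.33 against 5.52 in kidney, 6.72 against 3.20 in lung and 4.11 against 2.86 in heart. In muscle it was 1.87 against 2.19. The surroundings of the 8 genes thus held more distal peaks per kb than those of the average gene in 7 of the 8 lists, and newborn liver was not alone in this. By rank the newborn liver distal peaks were ordinary, with a median percentile of 46.6 against 46.3 for all distal peaks near PCGs, and so were those of newborn spleen at 43.6 against 45.3. At an IDR of 0.05 or lower, 9 of 55 were left in newborn liver (16.4%, against 14.2% of all) and 10 of 48 in newborn spleen (20.8%, against 19.9%).

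Of the 55 newborn liver distal peaks, 38 overlapped a newborn spleen peak. This share of 69.1% (Wilson 95% confidence interval 56.0 to 79.7, counting error only) stood beside 37.7% of all newborn liver distal peaks near PCGs. In the other direction, 72.9% of the spleen distal peaks overlapped newborn liver (59.0 to 83.4, against 56.2%). Overlap with newborn spleen was also above its background at the distal peaks of the other lists. It was 54.9% in suckling liver (41.4 to 67.7, against 32.5%), 58.0% in kidney (44.2 to 70.6, against 31.4%), 69.4% in lung (53.1 to 82.0, against 43.0%), 72.7% in heart (51.8 to 86.8, against 44.5%) and 70.0% in muscle (39.7 to 89.2, against 38.4%). In adult liver it was 43.5%, with an interval of 30.2 to 57.8 that takes in the background of 33.8%. The overlap with spleen was therefore above background in all 7 lists compared, in adult liver by less than its counting error.

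Between the liver ages the distal peaks looked like those of other genes. Of the 55 newborn liver peaks, 13 had no overlap in suckling or adult liver (23.6%, 14.4 to 36.3, against 19.4%). Overlap with suckling liver was 72.7% (against 73.6%), and 33 of the 55 overlapped adult liver (against 63.0%). Split by spleen, the picture differed from that of all genes. Among the 38 peaks shared with newborn spleen, 11 had no overlap in either later liver, or 28.9% (17.0 to 44.8), where the share over all PCGs was 10.5%. Among the 17 that were not in spleen, 2 had none, or 11.8% (3.3 to 34.3), where the share over all PCGs was 24.8%. Over all genes, newborn liver peaks found in spleen were called again in later liver more often than the rest, and around the red cell genes the order of the shares was the opposite. Of the 55 peaks, 6 overlapped newborn spleen and none of the other 6 lists (10.9%, against 1.69%), and of the spleen distal peaks 4 of 48 were shared with newborn liver alone (8.33%, against 2.37%). The intervals of both shares in the gene windows overlapped each other, and neighbouring peaks of a gene are not independent.

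**Figure D4:**
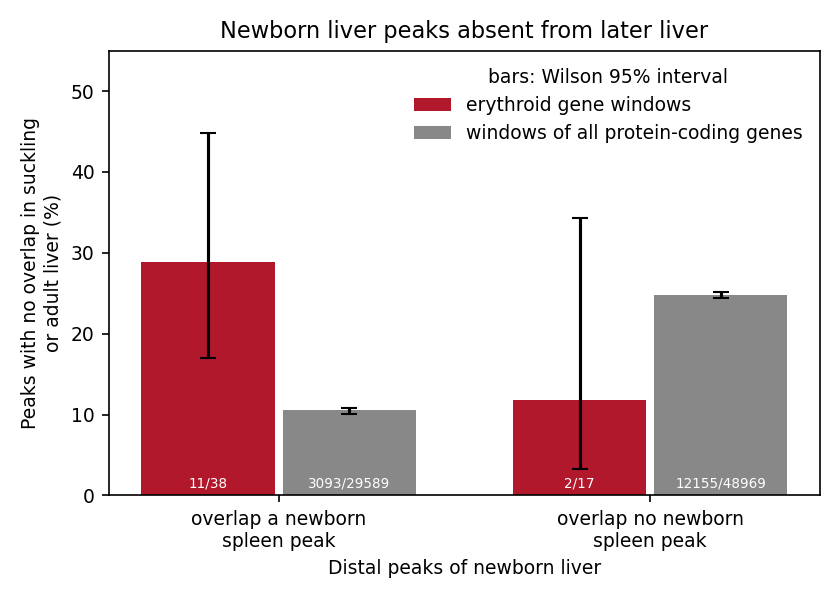
Share of newborn liver distal peaks with no overlapping peak in suckling or adult liver, for peaks that did or did not overlap a newborn spleen peak, in the windows of the 8 genes (red) and of all PCGs (grey), with Wilson 95% intervals and the counts in the bars. The red share is 28.9% among spleen-shared peaks and 11.8% among the rest, and the grey shares are 10.5% and 24.8%.

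To follow single sites, overlapping peaks of the 8 lists were joined into 136 regions, of which 105 were distal. Of these, 35 were called in both newborn liver and newborn spleen (33.3%, against 14.1% of the 197267 distal regions near PCGs). A set of 10 was called in both and in neither later liver (9.52%, against 1.33%). With the IDR limit of 0.05 this count was 0. With every list cut to an equal number of top peaks, it was 3 ranked by replicate 2 alone and 5 ranked by replicate 1 alone. The same cut ranked by the smaller replicate value also gave 3. All peaks kept in these cuts had still been called in both replicates. In the full lists the 10 lay at TAL1 (3), GFI1B (2), SLC25A37 (2), EPOR, NFE2 and ALAS2 (1 each), and none at KLF1 or TFRC. Of the 10, 4 were in no other list at all (3.81%, against 0.585%), namely at TAL1 (2), NFE2 and ALAS2. Regions of newborn liver or newborn spleen without later liver numbered 22 (21.0%, against 15.4%), and regions of a later liver without either of these newborn lists 20 (against 21.2%). All 8 lists shared 6 regions (5.71%, against 3.45%). Regions of a single list numbered 38 (36.2%, against 49.4%). Newborn liver alone had 1 (0.952%, against 3.97%), newborn spleen alone 7 (6.67%, against 5.69%), suckling liver alone 5 (4.76%, against 7.91%) and adult liver alone 6 (5.71%, against 5.84%).

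**Figure D5:**
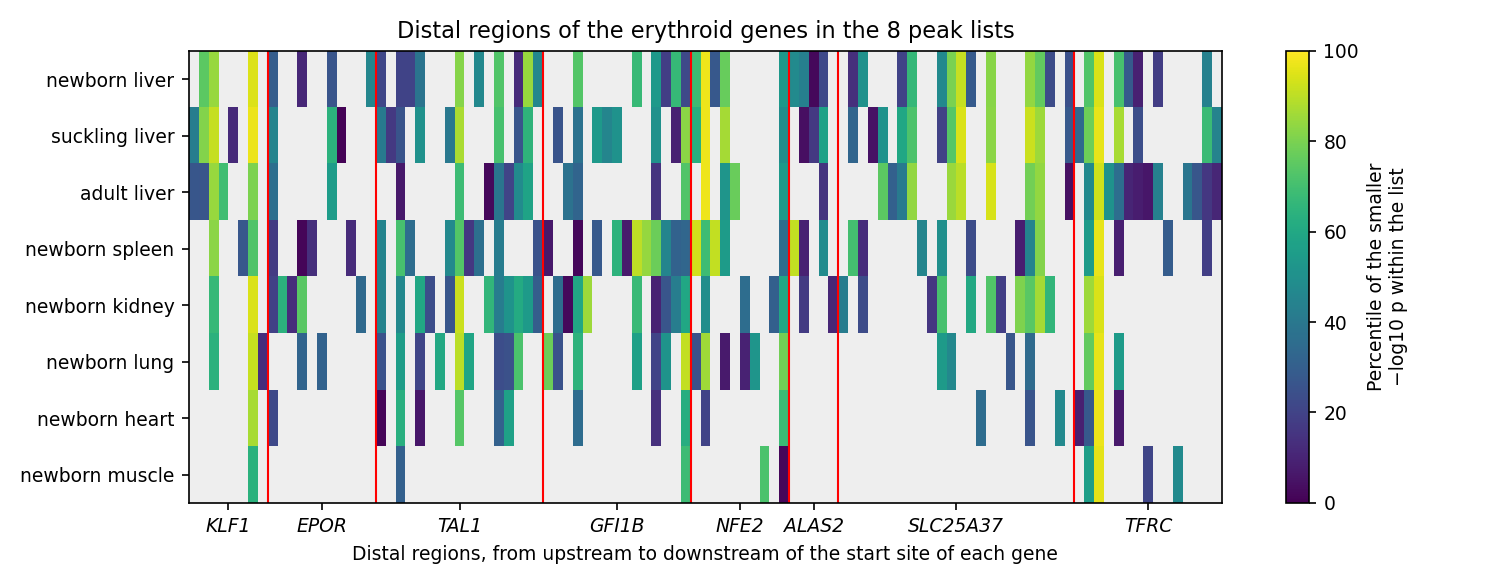
All 105 distal regions, in columns grouped by gene and ordered from upstream to downstream of the start, in the 8 peak lists. Colour gives the percentile of the smaller −log10 p within the list and grey means that no peak was called, and the muscle row, with 10 distal peaks, is the emptiest.

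The set of 10 differed in IDR and in how far apart the replicate values lay. Within an intron of GFI1B, at 6369 bp, newborn spleen had 40.2 and 108 (IDR 0.00389) and newborn liver 41.5 and 12.0 (IDR 0.0871), and peaks were also called in kidney (10.7 and 10.4, IDR 0.0617) and lung (6.43 and 8.08, IDR 0.741). By rank the kidney peak, at percentile 67.9, stood level with that of newborn liver at 67.2. In NFE2, at 4943 bp, newborn spleen had 44.8 and 90.9 (IDR 0.00363) and newborn liver 27.3 and 5.12 (IDR 0.331). These sites and the ALAS2 intron were the 3 of the 10 with an IDR of 0.05 or lower in newborn spleen, and no region of the set reached it in newborn liver.

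Downstream of TAL1, at 40713 bp, newborn spleen had 5.19 and 281 (IDR 0.661) and newborn liver 72.7 and 7.12 (IDR 0.245). The next TAL1 site, at 25520 bp, had 6.09 and 115 in newborn spleen and 55.7 and 7.18 in newborn liver. Upstream of SLC25A37, at −20556 bp, they were 4.40 and 225 in newborn spleen and 82.6 and 7.76 in newborn liver. At these sites the value was far higher in 1 replicate of each tissue, replicate 2 in spleen and replicate 1 in liver. Each site had still been called in both replicates. At the TAL1 sites, in the order given, the replicate summits lay 262 and 387 bp apart in spleen, and 338 and 0 bp apart in liver. Whether the lower values belong to another summit of the same site was not tested. Across all 10 regions replicate 1 was the higher in newborn liver and replicate 2 in newborn spleen. The lists lean the same way as a whole. Replicate 1 was the higher at 79.8% of all newborn liver peaks and at 20.2% of all newborn spleen peaks. In the windows of the 8 genes these shares were 84.2% and 9.72%.

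Other distal sites were called at all 3 liver ages. A set of 7 regions was called at all 3 liver ages and in no other list (6.67%, against 5.03%), of which 4 lay at SLC25A37. The strongest of these, in an intron at about 14 kb, had 159 and 36.9 in newborn liver, 41.5 and 43.1 in suckling liver, and 202 and 128 in adult liver, at percentiles 89.6 to 94.4. A site about 3 kb before NFE2, called in 7 lists, ranked at percentiles 97.4 to 97.5 at all 3 liver ages (304 and 72.5 in newborn, 61.9 and 96.8 in suckling, 238 and 245 in adult liver), with 12.6 and 160.5 in newborn spleen. It held both a GATA match and the composite at its summit in each of these lists. In newborn spleen alone, a region 19888 bp downstream of the GFI1B start had 24.8 and 81.3 (IDR 0.00891) with 3 GATA matches. It was the 1 region among the 7 of spleen alone with an IDR of 0.05 or lower.

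GATA matches within 300 bp about the summit were no more frequent than elsewhere in newborn liver. They were found at 19 of the 55 distal peaks (34.5%, 23.4 to 47.7, against 34.5% of all). In newborn spleen 20 of 48 had one (41.7%, 28.8 to 55.7, against 31.9%), in suckling liver 33.3% (against 30.6%) and in adult liver 41.3% (against 37.5%). The composite of CTG and GATA was found at 4 newborn liver peaks (7.27%, 2.9 to 17.3, against 2.60%) and at 4 spleen peaks (8.33%, 3.3 to 19.6, against 3.12%). Its share was 1.96% in suckling liver (against 2.07%) and 6.52% in adult liver (2.2 to 17.5, against 2.36%). KLF motifs (CACACCC or CACGCCC, both strands) were found at 21.8% in newborn liver (12.9 to 34.4, against 12.1%) and at 12 of 48 peaks in newborn spleen (interval 14.9 to 38.8%, against 13.8%). The KLF share was 21.6% in suckling liver (12.5 to 34.6, against 12.6%) and 15.2% in adult liver (7.6 to 28.2, against 9.90%). Matches to TGAGTCA, bound by NFE2 and AP-1 factors, stood at 3.64% (against 7.23%) in newborn liver and 6.25% (against 8.44%) in newborn spleen. Matches to GAGGAAG, a motif of the myeloid and B cell factor SPI1, stood at 18.2% (against 14.4%) and 22.9% (against 20.6%).

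Of 65 further genes of the red cell program in 6 lists, 60 were found by symbol in the annotation. Promoter peaks were called at 52 of them in newborn liver (73.7% of PCGs), 50 in suckling liver (75.0%), 44 in adult liver (69.9%) and 53 in newborn spleen (68.9%), and at 39 in all 8 lists (56.9%). The 7 genes of heme synthesis after ALAS2 had a promoter peak in every list, as 56.9% of PCGs had. A promoter peak in newborn liver with none in adult liver was found at 8 of the 60 (13.3%, against 5.42% of PCGs). Among these, SLC4A1 (the band 3 anion exchanger) and AHSP (a chaperone of alpha globin) had none in suckling liver either, and newborn spleen was the 1 other list with a promoter peak at them. In newborn liver SLC4A1 had 33.7 and 9.88 (IDR 0.117), and AHSP 42.1 and 8.68 (IDR 0.132). In newborn spleen SLC4A1 had 91.7 and 118 (IDR 0.00229), and AHSP 22.1 and 83.2 (IDR 0.0123).

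Promoter peaks at markers of other cell types were counted at the liver ages and in newborn spleen. Of all PCGs, 73.7% had one in newborn liver, 75.0% in suckling liver, 69.9% in adult liver and 68.9% in newborn spleen. Counts of myeloid and endothelial markers were nearly level across these lists. Hepatocyte markers (8 genes) had promoter peaks at 7 genes in newborn liver, 8 in suckling liver, 8 in adult liver and 2 in newborn spleen. Albumin (ALB), their first gene, had none in newborn liver, and APOA1 had one in all of these 4 lists. T cell markers (5 genes matched) had 2, 5 and 4 at the liver ages in order of age and 5 in newborn spleen, and B cell markers (6 genes) had 3, 4 and 3, and 6 in newborn spleen. No promoter peak of CD3E or CD3D was called in newborn liver and each was called in newborn spleen, while CD79A was called in all 4. Myeloid markers (8 genes) had 6, 6 and 5, and 6 in newborn spleen, with CSF1R and SPI1 called in all of these. Megakaryocyte markers (7 genes matched), of a lineage that shares GFI1B, NFE2 and TAL1 with red cells, had 5, 6 and 5, and 3 in newborn spleen, and ITGA2B was called in suckling liver alone while GP9 was called in all 4. Endothelial markers (6 genes) had 5 in each of these 4 lists, KDR and TEK among them. The part of these cell types in the peaks of the 8 genes was not tested.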

How the data were processed

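Peaks of 8 groups of 2 ATAC-seq libraries were analysed, with groups taken from the labels. Per the study's methods, the authors aligned reads to Sscrofa11.1 with Bowtie2, filtered alignments with SAMtools (version 1.3.1 per the submitters' processing notes), called peaks in each replicate with MACS2 and matched the replicates by IDR. The study states a shift and an extension size for peak calling, with paired fragments as input. How these options acted on the summits was not tested. The authors deposited 1 merged list per group, with the −log10 p-value of each replicate and a score that is the scaled IDR. Deposited columns for signal and q-value held a constant and were not used. The lists were not filtered on IDR and give no reads per peak, and the study's read totals per library were not used here, and with both replicates merged no test between groups was made.

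Genes came from the RefSeq annotation of the same build. Peaks were assigned by an overlap of 1 bp, with positions counted from 1. Percentiles and shares were computed with Python 3.11.15, pandas 2.3.3, NumPy 2.4.6, SciPy 1.17.1 and pysam 0.24.0, shares with Wilson 95% intervals, and the scripts were tested on simulated peaks. Counts were set beside the same count over all PCGs or all distal peaks within 25 kb of a PCG. All 8 genes were named. Of the pathway lists, genes were named that had a promoter peak in newborn liver and in neither later liver, or in newborn liver and newborn spleen alone, and of the marker lists the first genes in order that had a peak. Some genes named by this rule are not reported here. The genes and lists were chosen with earlier results of these data known. Alternatives were an IDR of 0.05 or lower and equal list lengths, ranked by the smaller replicate value or by either replicate alone. Further alternatives were other promoters (1000 bp before to 100 bp after the start), start sites, windows (10 or 50 kb) and overlaps (50% of the shorter peak). The rest were midpoints, a motif window of 200 bp, and, chosen after seeing the data, replicate values within 10-fold.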

Additional observations from a re-analysis of the deposited data

How the results depend on the processing

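Over 13 results and 12 alternatives, 111 of 144 values moved by at most 1.5 times or stayed inside their interval. No paired analysis was possible because the results are counts and shares of peaks merged over both replicates and none comes from a test. At an IDR of 0.05 or lower, genes with a promoter peak numbered 1 in newborn liver, 2 in suckling liver and 1 in adult liver, newborn promoter peaks without a later overlap 0, distal peaks 9 in newborn liver and 10 in newborn spleen, and regions of these lists alone, or without later liver, 0 and 0. The shares of newborn liver distal peaks were then 44.4% overlapping spleen, 11.1% without later liver and 22.2% with a GATA match. With the 57126 top peaks of every list, adult liver kept 1 gene, and newborn promoter peaks without a later overlap numbered 1. Distal peaks then numbered 24 in newborn liver and 30 in newborn spleen, and regions of both lists alone 2 and without later liver 3. No share over all PCGs was computed for this setting, so these counts have no background beside them. Windows of 10 and 50 kb gave 35 and 92 newborn liver distal peaks, and 5 and 16 regions without later liver, and 50 kb gave 7 regions of both lists alone.

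The merged peaks were also ranked by replicate 2 alone, then by replicate 1 alone, with as many top peaks kept in every list. All of these peaks had still been called in both replicates. Genes with a promoter peak then numbered 3 and 2 in newborn liver, 3 and 2 in suckling liver and 1 and 3 in adult liver. Newborn promoter peaks without a later overlap numbered 1 and 1, newborn liver distal peaks 24 and 27, spleen distal peaks 33 and 26, and regions of newborn liver and spleen without later liver 3 and 5. The count of 7 genes in newborn spleen moved under no alternative by over 1.5 times. The share of spleen-shared newborn liver peaks without later liver (28.9%) ranged from 22.6% to 32.5%, the lowest with replicate values within 10-fold, chosen after seeing the data. Some of these shares rest on few peaks, 1 of 4 at the IDR limit and 4 of 16 with the top peaks. The share over all PCGs (10.5%) was not recomputed under the alternatives, so the range does not cover the contrast with it. The cause of each change was not tested beyond the shorter lists and other window lengths that the alternatives themselves impose. Depth limits all absences.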

Other observations

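Among newborn liver distal peaks shared with newborn spleen and absent from later liver, the composite of CTG and GATA was found at 2 of 11 in the windows of the 8 genes (18.2%, 5.1 to 47.7) and at 7.57% of the 3093 such peaks near any PCG, where 2.60% of all newborn liver distal peaks near PCGs held it. GATA matches alone stood at 39.7% of the 3093 peaks, beside 34.5% of all.

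Outside the 8 genes, GATA1, the leading factor of the red cell program, had promoter peaks in newborn liver (20.4 and 3.47, IDR 0.603), newborn spleen (19.1 and 46.1, IDR 0.0129), suckling liver (5.63 and 4.14, IDR 0.631) and kidney, and none in adult liver, lung, heart or muscle. The beta globin gene HBB had 66.6 and 12.2 in newborn liver (IDR 0.0676), 65.9 and 132 in newborn spleen (IDR 0.0024) and 7.87 and 22.01 in suckling liver (IDR 0.148), and no promoter peak in the other 5 lists. Reads shared between HBB and related beta-like globin genes were not examined. GATA1 and HBB were chosen after their values were seen, and other genes of their lists differed. Of the 11 transcription factors listed, 10 had a promoter peak in adult liver (69.9% of PCGs) and 8 in all 8 lists (56.9%). Of the 9 globin and late red cell genes matched, 6 had one in newborn liver (73.7% of PCGs) and 6 in newborn spleen (68.9%). In adult liver 3 of these had one. HBE1, HBZ and HEMGN had none in newborn liver or newborn spleen.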
